A study of Mus musculus with 9 samples.

Results

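Acute-phase and innate secreted protein genes were followed here in limb micromass cultures treated with caspase inhibitors. The 10 genes were chosen by symbol (Saa3, Lcn2, Hp, Serpina3n, Slpi, Serping1, C3, Cfb, Ch25h and Nampt), and all 10 were found among the 52550 genes of the count table. RNA came from high-density cultures (micromasses) of dissociated mouse forelimb cells, taken at embryonic day 12 and grown with serum in medium that lets limb mesenchyme form cartilage. In the FMK group, 3 cultures received 100 µM Z-VAD-FMK for 6 days. In the OPH group, 3 cultures received 100 µM Q-VD-OPH for 6 days, and in the DMSO group 3 cultures received the vehicle. The labels call the cells chondroblasts and give no strain, genotype or sex, and such cultures hold every cell type that the dissection carried over. Both compounds are irreversible peptide inhibitors of caspases with broad reach. Z-VAD-FMK carries a benzyloxycarbonyl cap and a fluoromethyl ketone, and Q-VD-OPH carries a quinoline cap and a difluorophenoxy group.

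Acute-phase proteins are secreted in quantity when inflammatory cytokines such as interleukin 6, interleukin 1 and tumour necrosis factor act on liver and on connective tissue cells. The transcription factors NF-kB, STAT3 and C/EBP carry much of that signal to their genes. Several of the proteins limit damage during inflammation by blocking proteases, by binding iron or haemoglobin, or by feeding the complement cascade, and cartilage and synovial cells are known to make some of them.

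Libraries held 5659789 to 6867350 counts. Levels are in CPM, counts relative to library size after scaling of the libraries to each other (TMM), and come from the 3′ ends of polyadenylated transcripts. Calls rest on edgeR's quasi-likelihood test with Benjamini-Hochberg adjustment over 13255 genes at a threshold of 0.05, and every adjusted p below is from that test unless another is named. Cartilage markers were present, with 13 listed genes summing to 1709 to 1820 CPM with FMK, 1596 to 2731 CPM with OPH and 3351 to 4692 CPM with DMSO, Col2a1 and Col11a1 foremost, and 11 of the 13 fell with FMK and 7 with OPH. Macrophage markers summed to 30.2 to 46.7 CPM with FMK, 195 to 227 CPM with OPH and 1259 to 2438 CPM with DMSO, where Lyz2 and Fcer1g were highest. Interferon-stimulated genes, with Isg15 and Ifit1 highest in the mean of the 9 libraries, summed to 8656 to 11180 CPM with FMK, 7823 to 8396 CPM with OPH and 193 to 363 CPM with DMSO. In bulk RNA, fewer cells of a type and less RNA per cell cannot be told apart. The part of these shifts in the results below was not tested unless a value says otherwise.

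Promoters are shown for 4 genes, because Saa3 rose with both inhibitors while Slpi, Lcn2 and Serpina3n separated them. Each sequence is the 250 bases before the transcription start in RefSeq on GRCm38.p6, read 5′ to 3′ along the gene, and capitals mark matches to the motifs searched. The windows are chr7:46715677-46715926 (minus strand) for Saa3, chr2:164356508-164356757 (minus strand) for Slpi, chr2:32387740-32387989 (minus strand) for Lcn2 and chr12:104406458-104406707 (plus strand) for Serpina3n. For Slpi and Lcn2 the window lies inside the gene span given below, which reaches upstream to 164389095 and 32388252. The bases before those farther starts were not searched.
Saa3: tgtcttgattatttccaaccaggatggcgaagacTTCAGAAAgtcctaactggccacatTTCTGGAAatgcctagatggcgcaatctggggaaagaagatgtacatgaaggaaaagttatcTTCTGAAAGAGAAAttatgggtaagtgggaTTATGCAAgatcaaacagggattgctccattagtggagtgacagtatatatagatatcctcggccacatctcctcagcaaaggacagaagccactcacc
Slpi: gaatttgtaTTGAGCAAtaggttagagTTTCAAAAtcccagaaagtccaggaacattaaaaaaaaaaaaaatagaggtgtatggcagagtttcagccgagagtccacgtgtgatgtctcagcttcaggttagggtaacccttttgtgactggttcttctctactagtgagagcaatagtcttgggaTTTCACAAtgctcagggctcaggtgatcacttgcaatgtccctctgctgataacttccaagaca
Lcn2: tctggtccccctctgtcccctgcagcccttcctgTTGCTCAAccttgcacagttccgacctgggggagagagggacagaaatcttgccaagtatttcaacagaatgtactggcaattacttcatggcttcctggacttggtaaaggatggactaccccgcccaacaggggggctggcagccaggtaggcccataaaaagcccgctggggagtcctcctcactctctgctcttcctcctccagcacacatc
Serpina3n: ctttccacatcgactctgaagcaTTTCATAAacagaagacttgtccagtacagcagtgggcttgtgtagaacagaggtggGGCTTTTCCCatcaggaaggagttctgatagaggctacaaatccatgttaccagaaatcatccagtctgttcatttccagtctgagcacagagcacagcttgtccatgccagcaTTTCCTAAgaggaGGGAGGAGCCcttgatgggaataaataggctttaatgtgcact

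Motifs were searched on both strands in the promoters of 7 of the 10 genes (Saa3, Lcn2, Serpina3n, Slpi, C3, Ch25h and Nampt). A C/EBP-type motif, TTNNGNAA with N for any base, was matched in 6 of the 7 and in 36.9% of the 27025 promoters in the table. An NF-kB-type motif, GGGA and CC with 4 bases of any kind between them, was matched in 3 of the 7 (Serpina3n, C3 and Ch25h) and in 17.3% of all promoters. An interferon-response motif, a pair of GAAA with 2 bases of any kind between them, was matched in Saa3 alone among the 7 and in 3.04% of all promoters. In Saa3 it began 125 bases before the start, as GAAAGAGAAA, and overlapped the C/EBP-type match TTCTGAAA that began 129 bases before it. A STAT-type motif, TTCNNNGAA, was matched in 0 of the 7 and in 7.18% of all promoters. Nampt had a match to no motif in its window, which starts at 32820085, inside the gene span given below. These matches describe letters and do not show that a factor binds.

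Most of the 10 genes rose with FMK, and Saa3 and Nampt rose with OPH as well. With FMK against DMSO, 7 of the 9 genes that passed the filter on low counts rose (Saa3, Lcn2, Serpina3n, Slpi, Serping1, Ch25h and Nampt) and 0 fell, with a median log2 fold change of 1.45. Over all genes tested, 20.6% were called (10.4% higher and 10.1% lower), and the median log2 fold change was -0.0064. With OPH against DMSO, 2 of 9 rose and 0 fell, with a median of 0.50, beside 16.7% of all genes called (8.61% higher and 8.11% lower) and an overall median of -0.00245. With FMK against OPH, 3 of 9 were higher (Lcn2, Serpina3n and Slpi) and 0 lower, with a median of 0.75, beside 8.86% of all genes called (4.66% higher and 4.2% lower) and an overall median of -0.00836. At an unadjusted p under 0.05, edgeR had 1, 0 and 0 of the genes lower in these 3 comparisons, and DESeq2 called 1, 0 and 0 lower, the 1 being Hp with either tool.

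Levels of the 3 libraries of each group were also set side by side. FMK libraries lay above all DMSO libraries in 8 of the 10 genes and below them in 1, where 35.5% of all genes tested had groups that did not overlap (17.4% above and 18.1% below). OPH libraries lay above DMSO libraries in 2 genes and below them in 1, beside 33.7% of all genes (16.6% above and 17.1% below). FMK libraries lay above OPH libraries in 6 genes and below them in 1, beside 27.1% of all genes (13.2% above and 13.9% below). The comparisons with DMSO share the DMSO libraries. The genes were listed with earlier results known, so these counts describe the list only. Cfb, 1 of the 8 genes above DMSO with FMK, did not pass the filter and was not tested. It held 3 counts in FMK library 3 and in DMSO library 1, set apart only by library size. The same holds for Lcn2, with 20 counts in FMK library 3 and 21 and 22 in DMSO libraries 1 and 3.

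**Figure D1:**
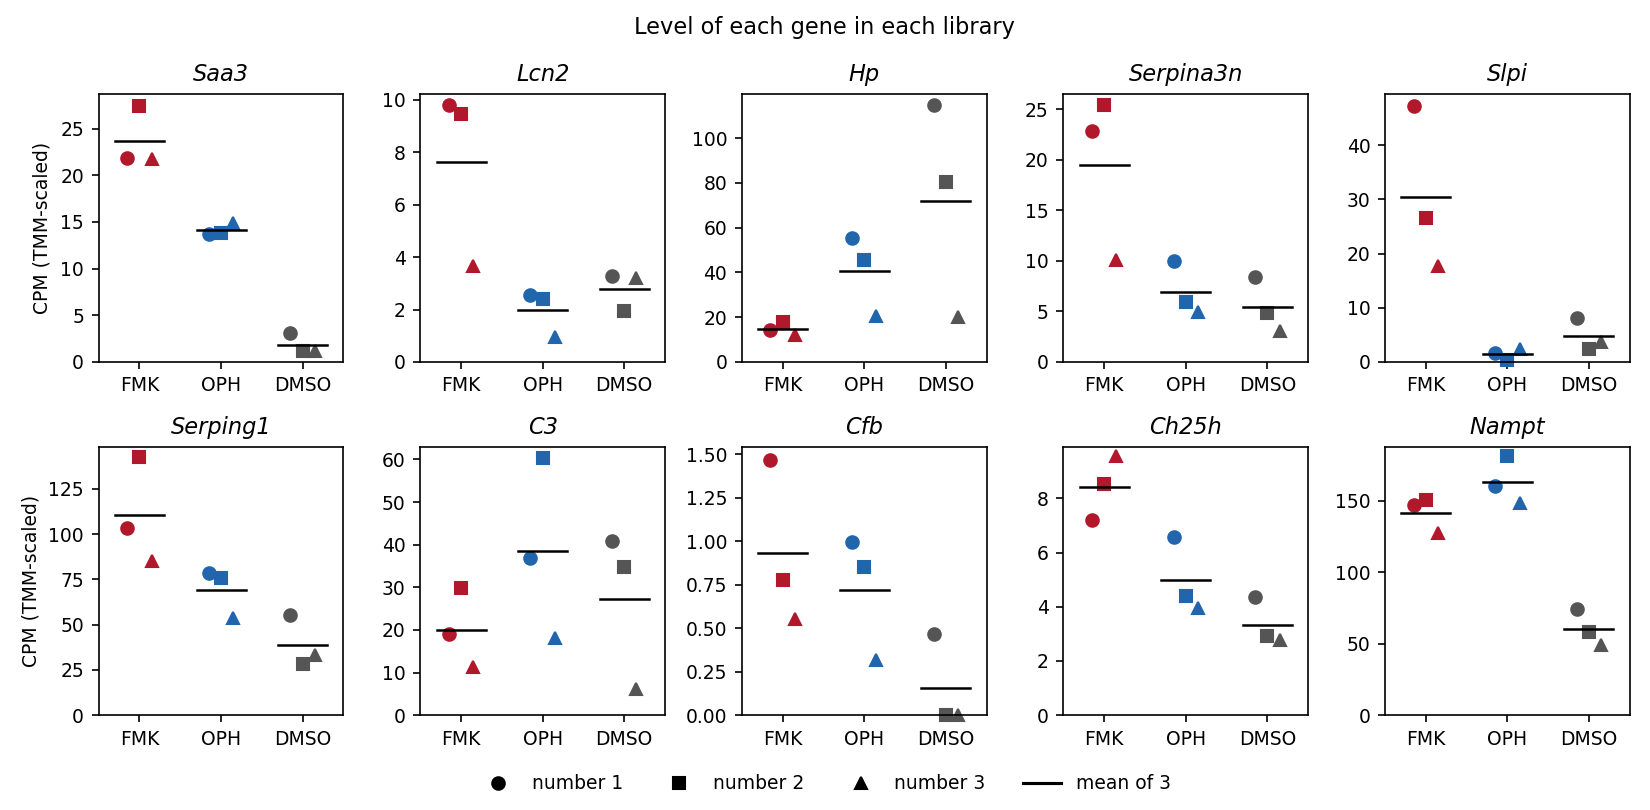
Level of each of the 10 genes in CPM (vertical axes, linear) in the 3 FMK, 3 OPH and 3 DMSO libraries. Point shape gives the replicate number and lines give the group mean. Saa3 and Nampt lie above DMSO in every FMK and OPH library. Slpi lies below DMSO in every OPH library, by 2.37 against 2.42 CPM for OPH number 3 and DMSO number 2.

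Saa3 encodes a serum amyloid A protein that in mice is made outside the liver (ENSMUSG00000040026, chromosome 7, 46711998 to 46715700, minus strand). It stood at 21.9, 27.4 and 21.7 CPM in FMK libraries 1, 2 and 3, at 13.7, 13.8 and 14.9 CPM with OPH and at 3.11, 1.13 and 1.16 CPM with DMSO. Every inhibitor library was above every DMSO library, and every FMK library above every OPH library. Saa3 averaged 23.7 ± 3.26 CPM with FMK, 14.1 ± 0.656 CPM with OPH and 1.80 ± 1.14 CPM with DMSO (SD, n = 3 each). The log2 fold change was 3.71 ± 0.30 (SE) with FMK (adjusted p = 7.51e-08) and 2.96 ± 0.31 with OPH (adjusted p = 2.48e-06). Both calls held in 19 of 19 alternative settings. FMK against OPH gave 0.75 ± 0.24 (95% interval 0.24 to 1.25, adjusted p = 0.0621), which did not pass, though it passed in 8 of 19 alternative settings.

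Serum amyloid A has other members that liver cells make. Saa1 and Saa4 had 0 counts in all 9 libraries and Saa2 had 1. Across the 3 libraries of a group, 3 counts correspond to 0.147 to 0.167 CPM, the limit that a count of 0 allows. Liver markers were near 0 as well, with 10 listed genes summing to at most 1.14 CPM in any library and Apoa1 and Alb highest among them.

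Lcn2 encodes lipocalin 2, which binds bacterial iron carriers and withholds iron (ENSMUSG00000026822, chromosome 2, 32384633 to 32388252, minus strand). Its level was 9.80, 9.46 and 3.68 CPM in the FMK libraries, 2.57, 2.42 and 0.949 CPM in the OPH libraries and 3.27, 1.94 and 3.20 CPM in the DMSO libraries. FMK library 3 was well below the other two and just above the highest DMSO library. Lcn2 rose with FMK by 1.45 ± 0.46 on the log2 scale (adjusted p = 0.0331). Its log2 fold change with OPH was -0.49 ± 0.50 (95% interval -1.54 to 0.56, adjusted p = 0.582). FMK exceeded OPH by 1.94 ± 0.47 (adjusted p = 0.0160), and the groups did not overlap. The call against DMSO was lost without FMK replicate 1 or 2 or DMSO replicate 1 or 2 (adjusted p = 0.0602 to 0.131) and with limma-voom (adjusted p = 0.0665). The call against OPH was lost without FMK replicate 1 or 2 or OPH replicate 3 (adjusted p = 0.0601 to 0.0783) and with limma-voom (adjusted p = 0.0513).

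Serpina3n encodes a serine protease inhibitor related to human alpha-1-antichymotrypsin (ENSMUSG00000021091, chromosome 12, 104406729 to 104414329, plus strand). It had 22.9, 25.4 and 10.1 CPM with FMK, 9.98, 5.97 and 4.90 CPM with OPH and 8.40, 4.84 and 3.05 CPM with DMSO. In each group the library numbered 3 was lowest. Every FMK library lay above every OPH and DMSO library, and the OPH and DMSO ranges overlapped. Serpina3n rose with FMK by 1.85 ± 0.43 (adjusted p = 0.00908) and exceeded its OPH level by 1.48 ± 0.41 (adjusted p = 0.0465). With OPH against DMSO the log2 fold change was 0.36 ± 0.44 (95% interval -0.61 to 1.34, adjusted p = 0.664). The FMK call against DMSO was lost without DMSO replicate 2 (adjusted p = 0.0520). The call against OPH was lost in 6 of 19 alternative settings, 5 of which leave out a library (FMK replicate 1 or 2, OPH replicate 2 or 3 or DMSO replicate 2, adjusted p = 0.0824 to 0.180).

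Serpina3n belongs to a cluster of closely related serpin genes, among which reads may be split. Of the 11 clade members listed, 2 passed the filter. The other, Serpina3g, rose with both inhibitors. It averaged 24.2 CPM with FMK, 12.3 CPM with OPH and 4.18 CPM with DMSO, and its log2 fold change was 2.53 ± 0.26 with FMK (adjusted p = 1.05e-06) and 1.55 ± 0.26 with OPH (adjusted p = 0.000436). FMK exceeded OPH by 0.98 (adjusted p = 0.0122), a call lost without FMK replicate 2 or OPH replicate 1 (highest adjusted p = 0.0848).

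Slpi, the secretory leukocyte protease inhibitor, blocks neutrophil elastase and cathepsin G (ENSMUSG00000017002, chromosome 2, 164354070 to 164389095, minus strand). It separated the 2 compounds more than any other of the 9 genes. The FMK libraries had 47.2, 26.5 and 17.7 CPM, the OPH libraries 1.57, 0.284 and 2.37 CPM and the DMSO libraries 8.09, 2.42 and 3.63 CPM. OPH library 2 held 2 counts of Slpi and FMK library 1 held 289. The FMK libraries lay above the DMSO libraries and the OPH libraries below them, with no overlap. OPH library 3 and DMSO library 2 held 15 counts each and were set apart only by library size. Against OPH the log2 fold change with FMK was 4.44 ± 0.69 (95% interval 2.84 to 6.04, adjusted p = 0.00757), a call that held in 19 of 19 alternative settings. Slpi rose with FMK against DMSO by 2.69 ± 0.59 (adjusted p = 0.0150), which was lost without DMSO replicate 3 (adjusted p = 0.0614). With OPH against DMSO it was -1.75 ± 0.77 (95% interval -3.53 to 0.02, adjusted p = 0.180), not a call. With the replicate number as a block it passed as lower (-1.72 ± 0.45, adjusted p = 0.00973).

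**Figure D2:**
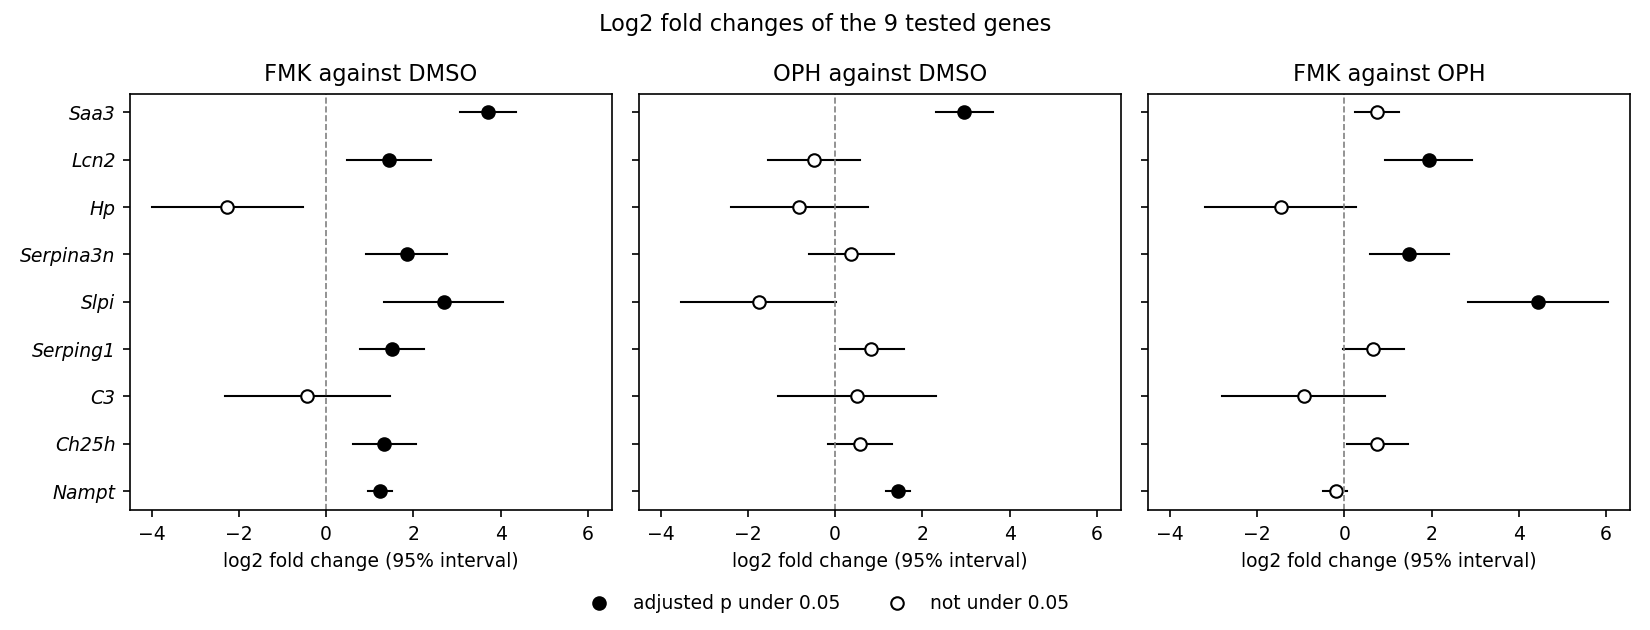
Log2 fold changes (horizontal axes) of the 9 tested genes with 95% intervals in the 3 comparisons. Filled points passed an adjusted p of 0.05. Slpi has the largest fold change of the 9 in FMK against OPH, at 4.44, and Saa3 the largest against DMSO with either compound, at 3.71 with FMK and 2.96 with OPH.

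Neutrophils and epithelia are known sources of Slpi, Lcn2 and haptoglobin, so their markers were read beside these genes. Of 15 neutrophil markers, 12 had counts and 1 passed the filter, and they summed to 13.2 to 19.5 CPM with FMK, 8.07 to 11.2 CPM with OPH and 66.6 to 223 CPM with DMSO. Mmp9, which macrophages and osteoclasts also express, carried most of that sum, at 9.47 to 18.4 CPM with FMK, 5.70 to 8.96 CPM with OPH and 58.9 to 218 CPM with DMSO. Prtn3 averaged 0.985, 1.38 and 0.653 CPM in the FMK, OPH and DMSO groups. Camp had 3, 7 and 41 counts in these groups and S100a8 4, 9 and 34, both most with DMSO. S100a9 had 16, 0 and 16 counts and Ly6g 6, 3 and 0, both with more in FMK than in OPH. Elane had 0, 0 and 2 counts, Mpo 1, 3 and 0 and Ltf 0, 0 and 3. The elastase and cathepsin G that Slpi blocks were thus near absent as transcripts, and Ctsg had 0 counts in all libraries. The 11 epithelial markers summed to 14.7 to 20.2 CPM with FMK, 12.3 to 15.4 CPM with OPH and 13.9 to 18.8 CPM with DMSO, with Krt15 and Krt18 highest in the mean of the 9 libraries. These moved in opposite directions with FMK. Krt15 averaged 4.52, 7.87 and 9.77 CPM in the FMK, OPH and DMSO groups and fell with FMK (-1.11, adjusted p = 0.0188). Krt18 rose with FMK (1.80, adjusted p = 0.0182), with 6.21, 6.05 and 5.33 CPM in the FMK libraries, 0.856, 2.99 and 1.27 CPM with OPH and 1.09, 1.29 and 2.62 CPM with DMSO. Of the 11, 4 passed the filter, and DESeq2 called 2 higher and 1 lower with FMK. Below the filter, Cldn4 had 22, 6 and 0 counts in the FMK, OPH and DMSO groups and Krt5 7, 0 and 1. Krt14 had 6, 0 and 4, Cdh1 6, 1 and 3 and Epcam 5, 8 and 7. Krt8 had 4, 2 and 7 and Esrp1 0, 3 and 2. The part of epithelial cells in the level of Slpi was not tested.

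Of 17 genes found for whey acidic and small antimicrobial proteins, 6 passed the filter. Shares over all genes tested were 10.4% higher and 10.1% lower with FMK and 8.61% and 8.11% with OPH. With FMK, Slpi rose while Lyz2 (lysozyme) and Wfdc17 fell. With OPH, Lyz2 and Wfdc17 fell and 0 rose (0 at an unadjusted p under 0.05 with edgeR, and 0 with DESeq2). Lyz2 had a log2 fold change of -5.70 with FMK and -3.92 with OPH, and Wfdc17 -4.98 and -5.59. Lyz2 is also in the macrophage list, and limma-voom lost both calls of Wfdc17 (adjusted p = 0.0527 and 0.0588).

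Hp encodes haptoglobin, which binds free haemoglobin (ENSMUSG00000031722, chromosome 8, 109575128 to 109579172, minus strand). Among these 4 acute-phase genes it alone had its lowest levels with FMK, with 14.4, 18.0 and 12.1 CPM in the FMK libraries, 55.3, 45.6 and 20.6 CPM in the OPH libraries and 115, 80.3 and 20.2 CPM in the DMSO libraries. The FMK libraries were the lowest, below every OPH and DMSO library. The OPH and DMSO ranges overlapped. Hp's log2 fold change was -2.26 ± 0.71 with FMK against DMSO (95% interval -3.99 to -0.54, adjusted p = 0.0756), which did not pass. In a fit with the replicate number as a block it passed (-2.10 ± 0.41, adjusted p = 0.0195), but not when that fit held the FMK and DMSO libraries alone (-2.09, adjusted p = 0.14). It was -0.82 ± 0.65 with OPH against DMSO (adjusted p = 0.491). That passed with the block in OPH and DMSO libraries alone (adjusted p = 0.00422), but not with the block in all 9 libraries (-0.71, adjusted p = 0.26). FMK against OPH gave -1.45 ± 0.71 (95% interval -3.18 to 0.28, adjusted p = 0.302). It passed as lower in 2 of 19 alternative settings. These were the block in FMK and OPH libraries alone (adjusted p = 1.03e-06) and libraries numbered 1 and 2 only (adjusted p = 6.49e-05). The receptor for haptoglobin clearance, Cd163, had 0, 1 and 0 counts in the FMK, OPH and DMSO groups.

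Hp and C3 were read beside fat cell transcripts, which also varied within groups. The 14 adipocyte markers, led by Fabp4 and Lpl, summed to 214, 235 and 132 CPM in FMK libraries 1, 2 and 3, to 2636, 3453 and 849 CPM with OPH and to 3141, 2959 and 563 CPM with DMSO. Of the 13 tested, 7 fell with FMK (12 in the block fit and 2 with limma-voom) and 0 with OPH (0 at an unadjusted p under 0.05 and 0 with DESeq2, but 2 in the block fit). In every group library 3 was lowest for these markers, for Hp and for C3, as it was for Serpina3n. With OPH, Hp was higher in library 1 than in library 2, the reverse of the markers. Within the numbers 1, 2 and 3 the log2 ratio of Hp (CPM + 0.5) was -2.95, -2.13 and -0.71 for FMK over DMSO and -1.05, -0.81 and 0.03 for OPH over DMSO. When only libraries numbered 1 and 2 were used, Hp passed as lower with FMK (-2.59, adjusted p = 1.09e-07) and with OPH (-0.95, adjusted p = 0.00152). Fat cells are known to make haptoglobin and C3, and their part in these values was not tested.

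**Figure D3:**
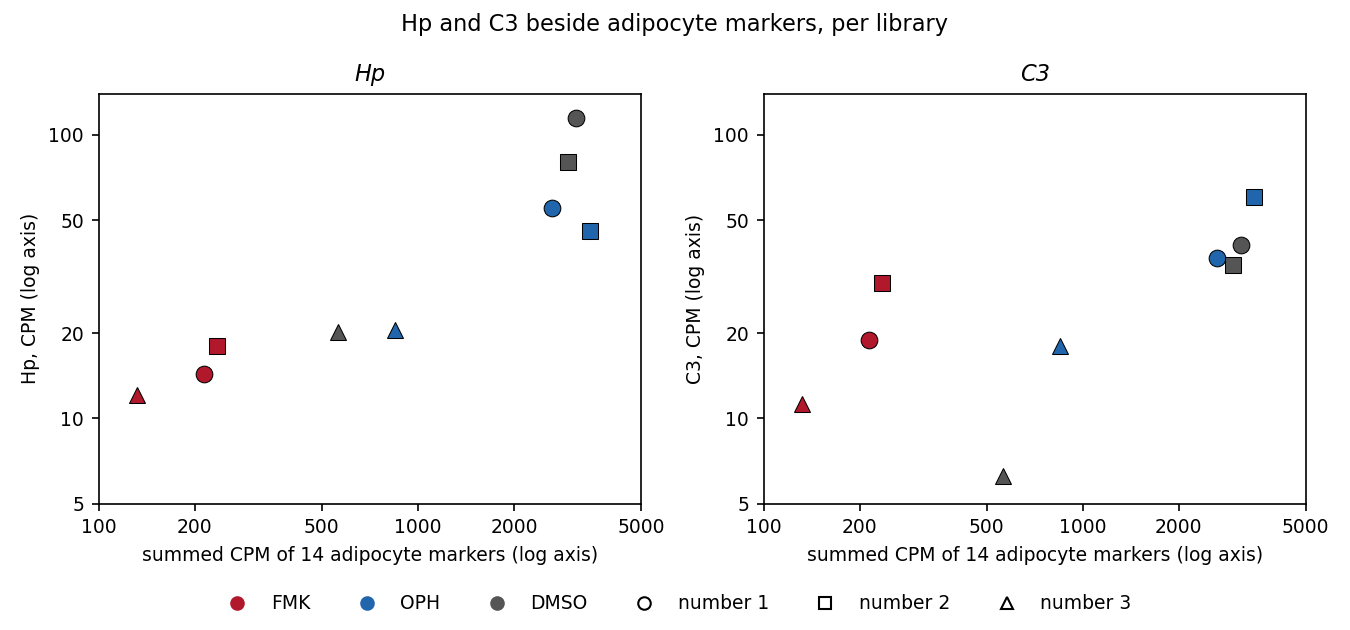
Hp and C3 in CPM (vertical, log axes) against the summed CPM of 14 adipocyte markers (horizontal, log axes), 1 point per library. Colour gives the group and shape the replicate number. The 3 FMK libraries lie at 132 to 235 CPM of adipocyte markers, and in each group number 3 is the lowest in both genes.

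C3 is the component on which all complement pathways converge (ENSMUSG00000024164, chromosome 17, 57203970 to 57228136, minus strand). It had 18.9, 29.9 and 11.2 CPM with FMK, 36.9, 60.3 and 18.0 CPM with OPH and 40.9, 34.7 and 6.25 CPM with DMSO. The groups overlapped in all 3 comparisons. Log2 fold changes were -0.43 ± 0.78 with FMK (95% interval -2.32 to 1.47, adjusted p = 0.774), 0.50 ± 0.75 with OPH (-1.31 to 2.32, adjusted p = 0.742) and -0.93 ± 0.77 with FMK against OPH (-2.79 to 0.93, adjusted p = 0.556). Against DMSO both intervals reach past a 2-fold change in either direction. With the replicate number as a block in all 9 libraries they were narrower and again did not pass. They were then -1.09 to 0.39 with FMK (adjusted p = 0.496) and -0.13 to 1.27 with OPH (adjusted p = 0.236). Within the numbers 1, 2 and 3, the log2 ratio of FMK over DMSO (CPM + 0.5) was -1.09, -0.21 and 0.80. That of FMK over OPH was -0.94, -1 and -0.66. C3 passed as lower in FMK against OPH in 1 of 19 alternative settings, the block in FMK and OPH libraries alone (-0.907, adjusted p = 3.54e-05). With the block in all 9 libraries it did not pass (-0.92, adjusted p = 0.0928).

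Cfb encodes factor B, the protease of the alternative complement pathway (ENSMUSG00000090231, chromosome 17, 34856374 to 34862518, minus strand). It had 9, 5 and 3 counts in the FMK libraries, 7, 6 and 2 counts in the OPH libraries and 3, 0 and 0 counts in the DMSO libraries. The 17 counts with FMK against 3 with DMSO give a ratio of 6.14 (95% counting interval 1.77 to 32.7), and the 15 with OPH a ratio of 4.79 (1.35 to 25.8). The intervals cover counting error only. With no filter on low counts, Cfb was tested and did not pass (adjusted p = 0.254 with FMK and 0.406 with OPH). Gm20547, which shares exons with Cfb on the same strand, had 0 counts.

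Serping1 encodes the C1 inhibitor, which restrains the classical pathway and the kallikrein system (ENSMUSG00000023224, chromosome 2, 84765387 to 84775444, minus strand). Its level was 103, 143 and 85.3 CPM with FMK, 78.4, 75.6 and 53.6 CPM with OPH and 55.2, 28.4 and 33.1 CPM with DMSO. The order of the means was FMK, OPH, DMSO, and FMK libraries lay above all others while OPH library 3 lay below DMSO library 1. Serping1 rose with FMK by 1.51 ± 0.31 (adjusted p = 0.0142). With OPH it was 0.83 ± 0.31 (95% interval 0.10 to 1.57, adjusted p = 0.130), and FMK against OPH gave 0.67 ± 0.30 (-0.04 to 1.38, adjusted p = 0.241). The FMK call was lost without DMSO replicate 3 (adjusted p = 0.0550), with only libraries 1 and 2 of each group (adjusted p = 0.0637), and with a replicate block in FMK and DMSO libraries alone (adjusted p = 0.075). The OPH change passed without DMSO replicate 1 (1.17, adjusted p = 0.0149), with DESeq2 (adjusted p = 0.00553), with limma-voom (adjusted p = 0.0302) and with a replicate block in OPH and DMSO libraries alone (adjusted p = 3e-04). FMK against OPH passed in 2 of 19 alternative settings. These were DESeq2 (adjusted p = 0.0433) and a replicate block in FMK and OPH libraries alone (adjusted p = 6.5e-06).

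Around C3, Cfb and Serping1, the complement system divided by gene. Of the 47 genes listed, 23 passed the filter. All genes tested gave 10.4% higher and 10.1% lower with FMK and 8.61% and 8.11% with OPH. With FMK, 3 rose and 9 fell, and with OPH 0 rose (2 at an unadjusted p under 0.05 and 2 with DESeq2) and 11 fell, with median log2 fold changes of -0.43 and -0.35. Those that rose with FMK were Serping1 and the genes of its targets, the C1 proteases C1s1 (2.32 ± 0.49, adjusted p = 0.00885) and C1ra (2.30 ± 0.47, adjusted p = 0.0119). C1ra had 31.0, 60.3 and 24.1 CPM with FMK, 24.5, 35.1 and 14.6 CPM with OPH and 5.91, 8.87 and 8.72 CPM with DMSO. Every inhibitor library of C1ra exceeded every DMSO library, but OPH against DMSO did not pass (1.66, adjusted p = 0.0524), and the FMK call was lost without DMSO replicate 1 (adjusted p = 0.0545).

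First by p among those that fell were Cfp, properdin, and the anaphylatoxin receptors C3ar1 and C5ar1. Log2 fold changes were -3.75 with FMK and -2.11 with OPH for Cfp, -5.76 and -2.21 for C3ar1 and -4.93 and -2.04 for C5ar1. All 3 were lower with FMK than with OPH (adjusted p = 4.99e-05 for Cfp, 5.09e-05 for C3ar1 and 0.00226 for C5ar1). Of the genes that fell, 4 of 9 with FMK and 4 of 11 with OPH are also in the macrophage marker list (C1qa, C1qb, C1qc and Itgam), all 16 tested members of which fell with either inhibitor. That list does not hold every gene that macrophages express, so these counts do not measure their part, which was not tested. With the replicate number as a block, 5 complement genes rose with FMK and 4 with OPH, and 11 and 13 fell.

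**Figure D4:**
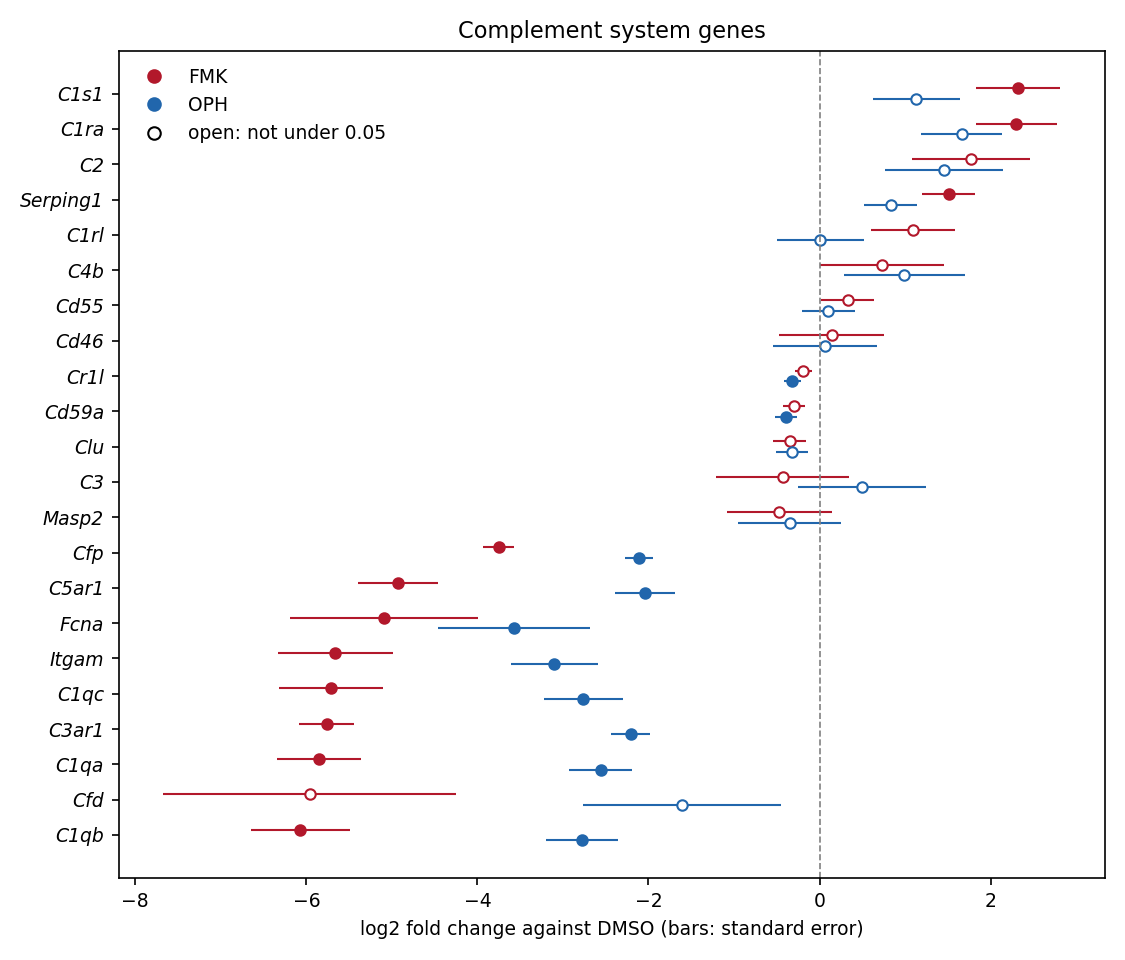
Log2 fold changes against DMSO (horizontal axis, with standard errors) of complement genes that passed the filter, FMK in red and OPH in blue. Open points did not pass an adjusted p of 0.05. C1s1, C1ra and Serping1 are filled to the right with FMK, and C1q, receptor and properdin genes are filled to the left with both.

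Ch25h encodes cholesterol hydroxylase, which makes an oxysterol with antiviral activity and is induced by interferon (ENSMUSG00000050370, chromosome 19, 34473778 to 34475164, minus strand). It had 7.19, 8.53 and 9.56 CPM with FMK, 6.56, 4.41 and 3.96 CPM with OPH and 4.36, 2.90 and 2.76 CPM with DMSO. All FMK libraries lay above the others, and OPH overlapped DMSO. Ch25h rose with FMK by 1.33 ± 0.34 (adjusted p = 0.00950). With OPH it was 0.58 ± 0.35 (95% interval -0.16 to 1.31, adjusted p = 0.303), and FMK against OPH gave 0.75 ± 0.33 (0.06 to 1.45, adjusted p = 0.174). The FMK call was lost (adjusted p = 0.0683) when only libraries 1 and 2 of each group were used. Gm26902, on the opposite strand, overlaps Ch25h and had 20 counts in all, so without a stated strand setting a few reads could be misassigned.

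Of the 11 oxysterol pathway genes listed, 10 passed the filter. The shares of all genes tested were 10.4% higher and 10.1% lower with FMK and 8.61% and 8.11% with OPH. With FMK, 2 rose (Ch25h and Insig2) and 2 fell (Gpr183 and Nr1h3), and with OPH 0 rose (1 at an unadjusted p under 0.05 and 1 with DESeq2) and 4 fell, among them Gpr183, Osbp and Cyp27a1. Gpr183, the receptor for an oxysterol made from the product of Ch25h, had 5 counts with FMK, 16 with OPH and 145 with DMSO, with log2 fold changes of -4.63 ± 0.78 with FMK and -3.23 ± 0.66 with OPH. Gpr183 is also expressed in macrophages, whose markers fell. The FMK calls of Insig2 (0.45) and Nr1h3 (-1.92) and the OPH call of Cyp27a1 (-2.10) were each lost in 5 of 19 alternative settings, of which 4, 4 and 5 leave out a library.

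Nampt encodes the rate-limiting enzyme of NAD salvage from nicotinamide, which is also found outside cells (ENSMUSG00000020572, chromosome 12, 32819545 to 32853349, plus strand). Its level was 147, 150.1 and 128 CPM with FMK, 160.1, 181 and 148 CPM with OPH and 74.0, 57.9 and 49.0 CPM with DMSO. Every inhibitor library was above every DMSO library. Nampt rose by 1.23 ± 0.13 with FMK (adjusted p = 5.18e-06) and by 1.44 ± 0.13 with OPH (adjusted p = 1.76e-06), calls that held in 19 of 19 alternative settings. The difference between the compounds was -0.20 ± 0.13 (95% interval -0.48 to 0.07, adjusted p = 0.375).

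Among 30 listed genes of NAD synthesis and use, 20 passed the filter. Of these, 5 rose and 1 fell with FMK and 4 rose and 1 fell with OPH, Nampt being among those that rose. For all genes tested the shares were 10.4% higher and 10.1% lower with FMK and 8.61% and 8.11% with OPH. Parp12, Parp9 and Parp14, ADP-ribosyltransferase genes which interferon is known to induce, rose by 2.81, 2.88 and 3.72 with FMK and by 2.53, 2.82 and 3.40 with OPH. Parp1, a DNA damage sensor, was called lower at -0.52 with each compound. Cd38, an NAD-degrading enzyme, rose with FMK (1.83, adjusted p = 0.0144) and exceeded its OPH level (1.67, adjusted p = 0.0424), calls lost in 4 and 8 of 19 alternative settings. It had 4.08, 4.34 and 6.62 CPM with FMK, 1.14, 2.42 and 1.11 CPM with OPH and 1.24, 1.77 and 1.16 CPM with DMSO. Naprt, which makes NAD from nicotinic acid, was 0.22 with FMK (adjusted p = 0.611).

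Cytokines, receptors and regulators of the acute-phase response were read beside the 10 genes. Of 28 listed, 23 passed the filter, and 13 rose and 2 fell with FMK while 7 rose and 1 fell with OPH. The median log2 fold changes were 0.56 and 0.34. Among all genes tested, 10.4% were higher and 10.1% lower with FMK, and 8.61% and 8.11% with OPH. With FMK the first by p were Nfkbia, the feedback inhibitor of NF-kB (1.46 ± 0.10), Cebpb, a C/EBP factor (1.11 ± 0.10), and Bcl3, an NF-kB cofactor (2.07 ± 0.20). With OPH the first were Nfkbia (0.97 ± 0.10), Cebpb (0.91 ± 0.10) and Relb (0.98 ± 0.16), and Il6ra, the interleukin 6 receptor gene, fell with both (-1.91 with FMK and -1.01 with OPH, the OPH call lost in 5 of 19 alternative settings). Il11ra1, the interleukin 11 receptor gene, fell with FMK (-0.68 ± 0.13, adjusted p = 0.00179). Il6 itself had 53 counts with FMK, 31 with OPH and 11 with DMSO, and its log2 fold changes of 2.38 and 1.47 did not pass (adjusted p = 0.247 and 0.541).

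FMK exceeded OPH in 8 of these 23 genes and was lower in 0 (2 at an unadjusted p under 0.05 and 1 with DESeq2). In that comparison 4.66% of all genes tested were higher and 4.2% lower. Socs3, Nfkbiz, Osmr and Cebpd are named here after their values were seen. Socs3, the feedback inhibitor that STAT3 induces, had 121, 119 and 98.9 CPM with FMK, 44.1, 38.1 and 39.6 CPM with OPH and 37.2, 33.5 and 58.3 CPM with DMSO. The FMK libraries stood apart, and OPH overlapped DMSO, with 1.48 for FMK against OPH (adjusted p = 0.000203). Nfkbiz, a nuclear NF-kB cofactor known to act on Lcn2, had 34.8, 33.2 and 22.4 CPM with FMK, 12.8, 8.53 and 9.81 CPM with OPH and 4.67, 4.52 and 11.1 CPM with DMSO. It differed by 1.54 between FMK and OPH (adjusted p = 0.00638). Osmr, the oncostatin M receptor, differed by 0.70 (adjusted p = 0.00311) and Cebpd by 0.78 (adjusted p = 0.00492), and all 4 calls held in 19 of 19 alternative settings.

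Other acute-phase genes were read in the same way. Of 37 found in the table, 29 had counts and 15 passed the filter, and 5 rose and 1 fell with FMK while 2 rose and 3 fell with OPH. Beside them, 10.4% of all genes tested were higher and 10.1% lower with FMK, and 8.61% and 8.11% with OPH. The metallothioneins, which bind zinc, rose with both compounds. Mt1 rose by 0.64 with FMK and 0.93 with OPH, and Mt2 by 1.94 and 1.61, the FMK call of Mt2 being lost with a replicate block in FMK and DMSO libraries alone (adjusted p = 0.0586). F3, tissue factor, was called higher with FMK (0.44, adjusted p = 0.0131), a call lost without FMK replicate 2 (adjusted p = 0.0642). Cd14, a coreceptor for bacterial lipopolysaccharide that is also in the macrophage list, fell by 3.28 with FMK and less with OPH (adjusted p = 0.00566), and FMK was lower than OPH (-2.28, adjusted p = 8.2e-05). The pentraxin gene Ptx3 and Steap4 fell with OPH, by 0.53 and 0.92.

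Receptors of the secreted proteins were partly present. The 13 genes listed include Hmox1, an enzyme and not a receptor, and 8 passed the filter. With FMK 2 rose (Tlr2 and Hmox1) and 1 fell (Cd36). With OPH the same 2 rose and 0 fell (1 at an unadjusted p under 0.05 and 0 with DESeq2). Over all genes tested, 10.4% were called higher and 10.1% lower with FMK, and 8.61% and 8.11% with OPH. Tlr2, proposed as a receptor of serum amyloid A, had 26.1, 36.6 and 26.1 CPM with FMK, 28.5, 29.2 and 29.6 CPM with OPH and 7.93, 11.6 and 10.2 CPM with DMSO. Its log2 fold changes were 1.58 with FMK (adjusted p = 6.54e-06) and 1.55 with OPH (adjusted p = 1.39e-05). Hmox1, the haem-degrading enzyme downstream of haptoglobin uptake, was called higher with FMK (0.34, adjusted p = 0.0272, lost in 5 of 19 alternative settings) and with OPH (1.12, adjusted p = 5.92e-07). Slc22a17, a lipocalin 2 receptor, had 48.5 CPM with FMK, 32.2 CPM with OPH and 46.6 CPM with DMSO and passed in neither comparison (adjusted p = 0.898 and 0.185). The other lipocalin receptor Lrp2 had 1, 1 and 0 counts in the FMK, OPH and DMSO groups. Cd36, a scavenger receptor that fat cells and macrophages also express, was called lower with FMK (-4.61, adjusted p = 0.0290), a call lost in 6 of 19 alternative settings.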

How the data were processed

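Raw counts per gene and library were deposited by the authors as whole numbers. The submitters' processing notes list STAR, cutadapt, DESeq2, FastQC and MultiQC and the build mm10, without versions. How reads were counted (program, annotation, strand, multiple mapping) is not given in the sources used here. Per the labels' protocols, libraries read the 3′ ends of polyadenylated RNA. The 99 spike-in rows (1 count) were left out. The 9 library columns were matched to samples by name, and counts of libraries of 1 group differed beyond Poisson sampling (5.47 to 13.5 chi-square units per degree of freedom). The labels call them biological replicates.

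The test was that of edgeR 4.0.16 (R 4.3.3) on the deposited counts: filterByExpr (13255 genes), TMM scaling (factors 0.945 to 1.03), and a robust quasi-likelihood model of all 9 libraries with 1 coefficient per group. Intervals are 95%. Exact permutation of 3 against 3 cannot go below p = 0.1. Alternatives were RLE or no scaling, no or stricter filtering (1 CPM in 3 libraries), DESeq2 1.42.0, limma-voom (3.58.1), 2-group fits, a replicate block, libraries numbered 1 and 2 only, and each library left out. A block within 2-group fits was added after seeing the data.

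Same-numbered libraries deviated together from their group means (r = 0.113 to 0.329 across genes for the comparisons with DMSO, all above 0.1, and down to 0.094 for FMK against OPH). Differently numbered libraries gave r = -0.265 to 0.011, below every same-numbered pair in all 3 comparisons. Deviations within a group cancel out when added, so positive values of same-numbered pairs pull the others down. The lower values are therefore not a separate sign of pairing. The main fit takes no account of the numbers, and the block was run as an alternative in all 3 comparisons. For Hp with FMK against DMSO the standard error was 0.71 in the main fit and 0.41 with the block. Positions are from GENCODE M21 (GRCm38, the assembly of mm10), which held 99.7% of the identifiers. The genes, lists and markers were chosen with earlier results of these data known. All 10 genes are named, and of each list the first 3 by p in each direction against DMSO. Of marker lists the top 2 by level are named, with further neutrophil and epithelial markers. A complement gene of the list is counted but not reported here.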

Additional observations from a re-analysis of the deposited data

How the results depend on the processing

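Members called with FMK against DMSO numbered 5 to 8 over the alternatives, and all genes called 1979 to 3552, within 1.5 times the 7 and 2724 reported. With OPH against DMSO, members called were 2 or 3 except 5 in 2-group fits with the replicate block, against 2 reported. With FMK against OPH, where 3 members were called, DESeq2 called 5 and 2-group fits with the replicate block 7, and leaving out 1 library gave 1 to 4 (1 without FMK replicate 1, FMK replicate 2 or OPH replicate 3). All genes called there were 1175, against 2139 with the replicate block, 2159 with the block in 2-group fits and 571 to 1386 with 1 library left out. The cause was not tested, beyond the smaller number of libraries where one is left out. With the block, Saa3 passed in FMK against OPH (0.74, adjusted p = 0.0189). Scaling by library size alone moved the overall median to -0.11 (FMK against DMSO) and -0.12 (FMK against OPH) in log2. It split the calls into 1012 higher and 1938 lower, and 385 higher and 1103 lower, against 1383 and 1341, and 618 and 557. No member changed direction in any setting. Of the members' log2 fold changes, 466 kept their side of the threshold, 26 gained a call and 21 lost it. Against DMSO, the block in the fit of all 9 libraries changed the calls of Hp with FMK and Slpi with OPH and no other member's. The block in 2-group fits changed those of Serping1 with FMK (lost) and of Slpi, Hp and Serping1 with OPH (gained). Depth limits Cfb, at 35 counts in all, and Slpi in OPH, at 28.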
